A study of Homo sapiens with 3 samples.

Results

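Mutations in a short list of genes recur in meningioma, the tumour of the membranes around the brain, and TRAF7 is among them. The genes described here are the other drivers on that list: NF2, AKT1, PIK3CA, SMO, SUFU, PTCH1, SMARCB1, SMARCE1, POLR2A and BAP1. The rule that picks them uses gene names and no measured value. A gene was read from the probe set that names it alone in the platform annotation, and from the brighter one where there were several. By that rule 8 of the 10 genes were measured, out of 22395 genes in the table; PIK3CA and BAP1 were not analysed here. All 8 passed a filter on level, a mean log2 intensity over the arrays at or above the median gene (1.21), as did 11198 genes in all.

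The data are 3 arrays of HEK293T cells, a cultured line from human embryonic kidney in which SV40 large T antigen is expressed (1 label field spells it HEK239T). Growing cells were infected with lentivirus carrying pCDF1 with no insert, pCDF1 with wild-type human TRAF7, or pCDF1 with TRAF7 G536S, a change in the WD40 repeats, and stable cells were kept under puromycin. All 3 groups therefore share infection, vector and selection, and each is 1 array with no replicate. Whether the cells were a pool or a clone is not given in the sources used here. No p-value, SD or count of significant genes can be given, and a difference between arrays holds culture, extraction and hybridisation as well as the construct. Values are log2 intensities that the authors made with RMA (robust multi-array average: background correction, normalization between arrays and a summary per probe set). An array measures messenger RNA and says nothing of mutations in these genes.

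The drivers fall into a few pathways. NF2 encodes merlin, a relative of the ezrin, radixin and moesin proteins that links membrane to actin and activates the Hippo kinases, which restrain YAP and TAZ. PIK3CA is the catalytic subunit of PI3-kinase and AKT1 the kinase that its lipid product recruits. PTCH1 is the Hedgehog receptor; without ligand it holds SMO inactive, and SUFU keeps the GLI transcription factors in check. SMARCB1 and SMARCE1 are subunits of the SWI/SNF chromatin remodellers, POLR2A is the largest subunit of RNA polymerase II, and BAP1 removes ubiquitin from histone H2A. In meningioma, TRAF7 mutations are known to occur mostly in tumours without NF2 loss, often beside a mutation of KLF4, AKT1 or PIK3CA.

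Promoter sequence was searched for motifs of factors tied to these pathways or to the study. RefSeq windows (GRCh38.p14) of 250 bases before to 50 after a gene start covered 9 of the 10 drivers in 15 windows. The letters searched, on both strands, were GACCACCCA for GLI, TGANTCA for AP-1 and TGACGTCA for a cAMP response element. Both stretches below are shown because they hold the only matches among the drivers, in capitals, printed 5′ to 3′ in the direction of the gene.
PTCH1, minus strand, chr9:95509404-95509464: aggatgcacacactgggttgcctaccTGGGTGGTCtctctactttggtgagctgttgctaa
SMARCB1, plus strand, chr22:23786777-23786835: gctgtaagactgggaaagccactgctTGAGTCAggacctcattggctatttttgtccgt
The PTCH1 match is the GLI motif read on the opposite strand, with its first base at position -172 from 1 of the gene's 5 starts in the table, and 0.236% of all 35116 windows hold that motif. PTCH1 is a textbook target of GLI. The SMARCB1 match is the AP-1 motif at -163, and 7.71% of all windows hold it. No driver window held TGACGTCA, which 1.85% of all windows do. A match is a description of these letters, not a binding site.

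As a check of the labels, TRAF7 itself was 5.66 with the empty vector, 8.11 with wild type and 7.35 with G536S. It was thus 1.69-fold lower with G536S than with wild type (-0.76), where 1.6% of genes passing the filter were at least as far apart. In G536S minus wild type, the changed residue and the level of TRAF7 RNA cannot be told apart. Over the genes passing the filter, the median difference was 0.08 for wild type minus empty vector, 0.10 for G536S minus empty vector and 0.0069 for G536S minus wild type. The robust spread of the differences (the scaled median absolute deviation) was 0.27, 0.28 and 0.23. The empty vector array was the lowest of the 3 for 50.4% of these genes, an offset that touches every difference from it. Of the HEK293 kidney and epithelial markers 5 of 7 passed the filter, PAX2 and CDH2 among them, while PAX8 and KRT8 did not. Their summed linear intensity was 79.9 with the empty vector, 102 with wild type and 95.9 with G536S. That sum is led by EYA1, the brightest of the 7, at 5.47, 6.06 and 5.865 on the log2 scale. Only 2 of the 7 read above the empty vector with wild type, and 3 with G536S. The median difference of the 7 was -0.03 and -0.05. Neuronal markers passed for 4 of 8 genes, with sums from 144 to 154. None of the 9 measured meningeal markers passed, PTGDS and SSTR2 included, and their highest log2 value on any array was 1.38. Leukocyte markers passed for 2 of 8 genes (CD79A and CD68), fibroblast markers for 1 of 4 (COL1A1) and endothelial markers for 0 of 5.

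No driver was 1.5-fold apart, in either direction, in any of the 3 comparisons. With wild type against the empty vector, 0 of 8 drivers were 1.5-fold apart, where 7.22% of genes passing the filter were. With G536S against the empty vector it was 0 of 8 beside 8.15%, and with G536S against wild type 0 of 8 beside 3.98%. At those shares 0.577, 0.652 and 0.319 of 8 genes would be counted, so a count of 0 does not set the drivers apart from other genes. The median driver difference was -0.07, 0.02 and 0.13 in the 3 comparisons, beside the medians of all genes given above. Both comparisons with the empty vector share that array.

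**Figure D1:**
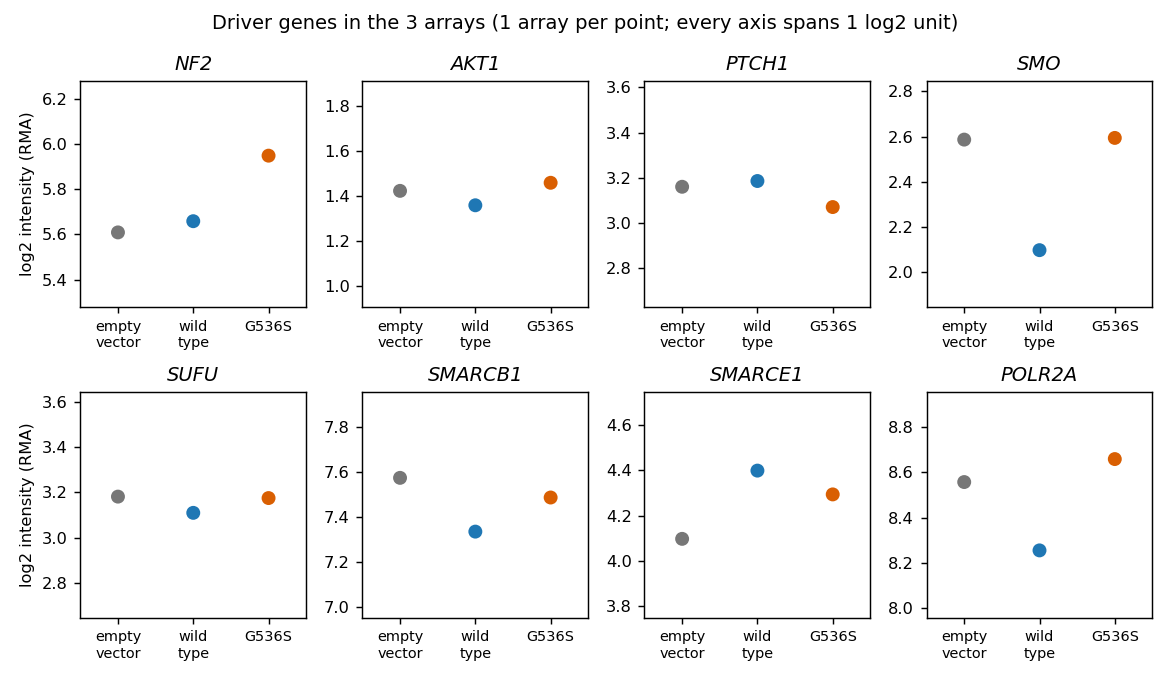
Each panel plots the log2 RMA intensity of 1 driver gene (y axis, spanning 1 log2 unit in every panel) in the empty vector, wild-type TRAF7 and G536S arrays (x axis), with 1 array per point and no error bar because there are no replicates. SMO and POLR2A are lowest in the wild-type array, at 2.10 and 8.25, NF2 is highest with G536S at 5.95, and SUFU, AKT1 and PTCH1 stay within 0.12 of themselves.

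The Hedgehog transducer SMO had the widest range of the 8. Its values were 2.59 with the empty vector, 2.10 with wild type and 2.59 with G536S. The wild-type array was thus low, and the other two were 0.0075 apart. In bulk RNA such as this, fewer cells with a transcript and less of it per cell cannot be told apart. The difference was -0.49 for wild type minus empty vector (1.40-fold lower) and 0.50 for G536S minus wild type (1.41-fold higher). Of genes passing the filter, 11.5% were at least as far apart in the first comparison and 6.89% in the second. Among the 2799 genes whose mean level lies between 1.74 and 2.87, as that of SMO does, the robust spread of the same differences was 0.30 and 0.25. After quantile normalization of the deposited columns the first difference was -0.64, and after cyclic loess -0.60, both past 1.5-fold (0.58 on the log2 scale). The difference between the constructs was from 0.48 to 0.50 under the 3 rescalings of the arrays. G536S minus empty vector turned to -0.16 under quantile normalization and -0.11 under cyclic loess, so the order of those 2 arrays is not settled for SMO.

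The other members of the Hedgehog branch varied less. PTCH1 was 3.16 with the empty vector, 3.19 with wild type and 3.07 with G536S, a range of 0.12 in which no array stands out. Its differences from the empty vector were 0.025 and -0.09, and the first changed sign after quantile normalization and cyclic loess. SUFU, the GLI inhibitor, read 3.18, 3.11 and 3.17 in the same order, a range of 0.07. For SUFU, 79.1% of genes passing the filter were at least as far apart with wild type and 98.2% with G536S against the empty vector.

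Around them, 23 of 25 listed Hedgehog genes were measured and 17 passed the filter. With wild type against the empty vector 0 were 1.5-fold higher (5.42% of all genes passing) and 1 lower (1.79%), GAS1, a co-receptor for the ligand. GAS1 was 2.64 with the empty vector, 1.97 with wild type and 2.13 with G536S, so both construct arrays lay below the empty vector, with differences of -0.67 and -0.52. It was 1.5-fold lower with wild type under all 3 rescalings of the arrays, and with G536S after quantile normalization (-0.68) and cyclic loess (-0.63). GLI2, a transcription factor of the pathway, read 2.25, 2.60 and 2.81, and CDON, another co-receptor, read 2.46, 2.68 and 2.99. Both were thus lowest with the empty vector and highest with G536S, with differences from the empty vector of 0.56 and 0.53 for G536S, short of 1.5-fold. KIF7, a ciliary regulator of GLI, read 1.84, 1.91 and 2.19. The ligands SHH, IHH and DHH and the GLI targets GLI1 and HHIP did not pass the filter, and GLI1 lay between 1.13 and 1.20 on all arrays. With G536S, 0 of the 17 passing were 1.5-fold apart from the empty vector in either direction, beside 6.07% of genes higher and 2.08% lower. Of the same 17, 0 were 1.5-fold apart from wild type, beside 2.17% and 1.81%. After quantile normalization 2 of the 23 were 1.5-fold lower with G536S than with the empty vector, beside 498 of the 11198 genes passing. The 2 were GAS1 and GRK2, a kinase that acts on SMO (-0.44 as deposited, -0.60 rescaled). The list medians were 0.01, 0.02 and 0.05 over the 23 measured, and 0.04, 0.06 and 0.08 over the 17 passing.

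POLR2A, the catalytic subunit of RNA polymerase II, had the next widest range. Its values were 8.56 with the empty vector, 8.25 with wild type and 8.66 with G536S. The difference was -0.30 for wild type minus empty vector (1.23-fold lower) and 0.40 for G536S minus wild type (1.32-fold higher), with 29.4% and 12% of genes at least as far apart. Wild type was below the empty vector, and G536S above wild type, under quantile normalization, median centring and cyclic loess. The other alternatives left the POLR2A values unchanged, so they could not test this order. G536S minus empty vector was 0.10 as deposited and -0.08 after quantile normalization, so the order of those 2 arrays is not settled.

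The other polymerase II subunits did not follow a single course. All 11 listed subunits were measured and 10 passed the filter. POLR2D was 4.20 with the empty vector, 4.79 with wild type and 4.81 with G536S. No other subunit was 1.5-fold above the empty vector; POLR2D was, by 0.59 (wild type) and 0.62 (G536S). That is 1 of 11 in each, beside 5.42% and 6.07% of all genes higher, and both differences fell short of 1.5-fold after quantile normalization, at 0.45 and 0.47. POLR2H also read higher with both constructs, by 0.37 and 0.39. POLR2G followed the order that POLR2A had as deposited, at 4.52, 4.21 and 4.78, with a difference of 0.57 for G536S minus wild type. POLR2E, a subunit shared with the other polymerases, did so too, at 8.15, 7.83 and 8.28. POLR2I read 6.40, 6.33 and 6.83, highest with G536S. The subunit medians were -0.03, 0.09 and 0.02 in the 3 comparisons.

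Of the assembly factors and enzymes that act on the polymerase tail, 15 of 16 were measured and all 15 passed. With wild type none was 1.5-fold apart from the empty vector, beside 7.22% of all genes. CCNT1, the cyclin of the elongation kinase P-TEFb, differed by 0.49, and CDK12, a kinase of the tail, by -0.35. With G536S 1 was 1.5-fold higher, beside 6.07% of all genes: the Mediator kinase CDK8, at 4.58 against 3.99 with the empty vector and 4.23 with wild type. RPAP2, a tail phosphatase, was close below that threshold, at 5.19 against 4.61 (0.58). After quantile normalization and cyclic loess neither reached 1.5-fold, and after centring each array on its median both did.

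NF2 was highest in the G536S array. It was 5.61 with the empty vector, 5.66 with wild type and 5.95 with G536S, so the first 2 arrays were close and G536S stood above them. The difference was 0.34 for G536S minus empty vector (1.27-fold higher) and 0.29 for G536S minus wild type (1.22-fold higher). At least as far apart were 27.0% and 22.8% of genes passing the filter. Both kept their sign under quantile normalization, median centring and cyclic loess, with the first between 0.19 and 0.37. The other alternatives left the NF2 values unchanged, so they could not test the sign. Wild type minus empty vector was 0.05 and changed sign after quantile normalization and cyclic loess.

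Among Hippo kinases, their partners and the ERM relatives of merlin, 26 of 27 genes were measured and 25 passed. With wild type 1 was 1.5-fold higher and 0 lower than the empty vector, beside 5.42% and 1.79% of all genes passing. This was WWC1, which encodes the NF2 partner KIBRA, at 2.20 with the empty vector, 2.97 with wild type and 2.44 with G536S. WWC1 stood out in the wild-type array alone, and its difference of 0.77 stayed past 1.5-fold under all 3 rescalings. AMOT, the YAP-binding scaffold angiomotin, was lowest there, at 7.50 against 8.05 with the empty vector and 7.79 with G536S. After quantile normalization that difference of -0.55 passed 1.5-fold, at -0.68. With G536S 1 was 1.5-fold higher and 0 lower than the empty vector, beside 6.07% and 2.08%: MOB1A, an activator of the LATS kinases. MOB1A was 5.24 with the empty vector, 5.71 with wild type and 5.96 with G536S. Its close relative MOB1B read 1.81, 2.33 and 2.14, also lowest with the empty vector. SAV1, the scaffold of the Hippo kinases, read 2.75, 2.51 and 2.89. None of the 26 was 1.5-fold apart between the constructs, beside 3.98% of all genes passing. The list medians were 0.08, 0.10 and -0.01, each within 0.02 of that of all genes.

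AKT1 was 1.42 with the empty vector, 1.36 with wild type and 1.46 with G536S, a range of 0.10. These values lie just above the level filter, where differences on such arrays are compressed, so a difference in AKT1 RNA could have been missed. In the rest of the PI3K-AKT-mTOR list, 30 of 33 genes were measured and 26 passed. The only member 1.5-fold apart in any comparison was FOXO4, a forkhead factor that AKT phosphorylates, 1 gene in each comparison with the empty vector beside 7.22% and 8.15% of all genes, and 0 between the constructs beside 3.98%. FOXO4 was 2.70 with the empty vector, 1.97 with wild type and 2.0 with G536S. Both constructs were low and close to each other (0.025 apart), and both differences from the empty vector, -0.72 and -0.70, stayed past 1.5-fold under the rescalings. TSC2, an inhibitor of mTORC1, was 5.33, 4.89 and 4.82, also highest with the empty vector. FOXO3 read 1.38, 1.86 and 1.46, highest with wild type. RPTOR, which defines mTORC1, read 4.72, 4.30 and 4.80, lowest with wild type. The list medians were 0.04, 0.08 and -0.03 over the 30 measured, and 0.05, 0.09 and 0.0014 over the 26 passing.

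**Figure D2:**
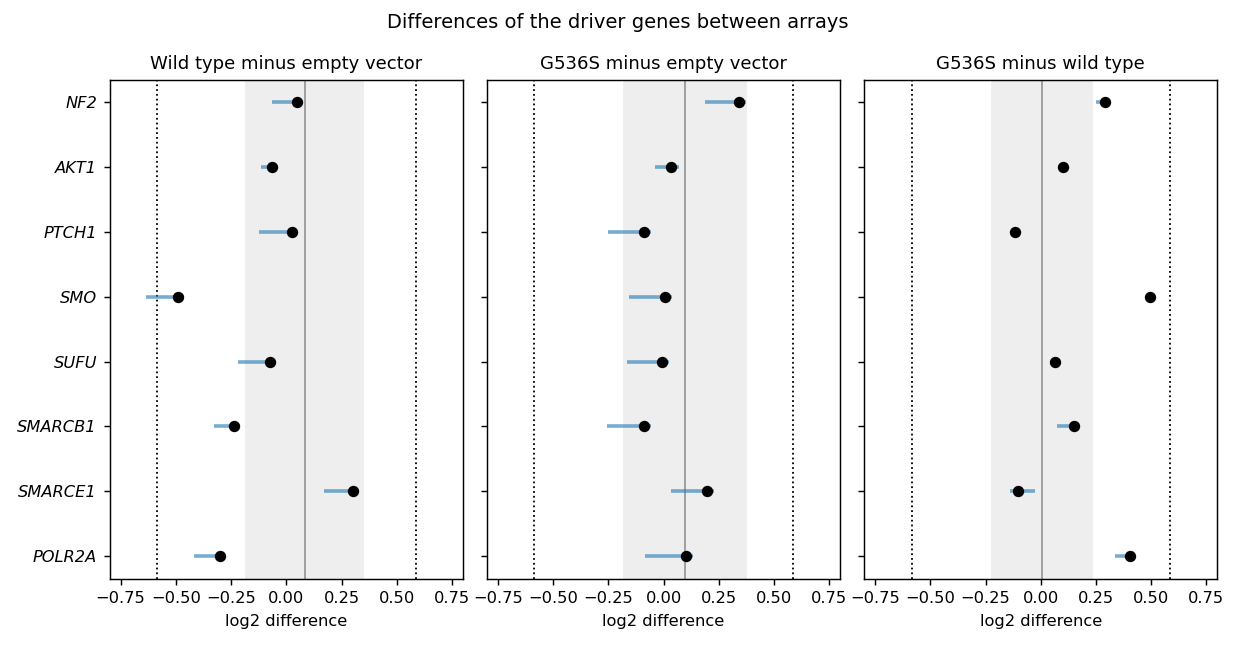
Log2 differences (x axis) of the 8 measured drivers (y axis) in each comparison, as deposited (black points), with a bar from the lowest to the highest value under the alternatives. The grey band is the median of all genes passing the filter plus and minus their robust spread, and dotted lines mark 1.5-fold; SMO at -0.49 is the point farthest from the band with wild type.

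The SWI/SNF subunits SMARCB1 and SMARCE1 did not share a direction. SMARCB1, a core subunit, was 7.57 with the empty vector, 7.34 with wild type and 7.49 with G536S. Wild type was lower than the empty vector by 0.24 on the log2 scale (1.18-fold). Of genes passing the filter, 40% were at least as far apart in either direction, and 12% were lower by as much or more. SMARCE1, a DNA-binding subunit, read 4.10, 4.40 and 4.29, lowest with the empty vector, with differences of 0.30 for wild type and 0.20 for G536S. Its second probe set lay below the filter level on every array (0.84, 0.88 and 0.93), and the mean of the 2 probe sets gave 0.17 for wild type. A further probe set, which names KRT222 as well, was not used.

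All 26 other SWI/SNF genes listed were measured and 25 passed. With wild type 1 was 1.5-fold higher and 0 lower than the empty vector, beside 5.42% and 1.79% of all genes: BCL7A, at 3.20 with the empty vector, 3.90 with wild type and 3.69 with G536S. BCL7A was lowest with the empty vector, and its difference of 0.70 was 0.56 after rescaling at the lowest, short of 1.5-fold. Its relative BCL7C read 1.72, 2.0 and 2.25. BRD7, of the PBAF form of the complex, read 4.59, 4.86 and 5.11, so both were highest with G536S. SS18L1, a subunit of neuronal forms, was 2.93, 2.51 and 2.47, highest with the empty vector. The ATPase SMARCA4 read 6.82, 6.73 and 7.06, and the core subunit SMARCD1 read 6.71, 6.50 and 6.83. Both were lowest with wild type, as were POLR2A, SMO and 24.9% of all genes passing. With G536S none of the 26 was 1.5-fold apart from the empty vector (8.15% of all genes) or from wild type (3.98%). The list medians were 0.05, 0.06 and -0.01.

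BAP1 itself was not analysed here, but 17 of 19 genes listed for its complex, its relatives and the ligases it opposes were measured, and all 17 passed. UCHL3, a ubiquitin hydrolase of the same family, was 5.06 with the empty vector, 6.19 with wild type and 5.76 with G536S. The 3 arrays were well apart, with wild type 1.13 above the empty vector (2.19-fold) and G536S 0.71 above it. No other gene of the list was 1.5-fold apart in either comparison with the empty vector, so 1 of 17 was in each, beside 7.22% and 8.15% of all genes. The wild-type difference was 1.02 at the lowest under the rescalings, and that of G536S 0.56, short of 1.5-fold. UCHL5, another family member, was 3.66, 4.21 and 4.21, so both constructs were above the empty vector by 0.56 and 0.55. HCFC1, the chromatin cofactor that BAP1 binds, read 9.08, 8.58 and 8.85, lowest with wild type. Between the constructs none of the 17 was 1.5-fold apart, beside 3.98% of all genes. The list medians were 0.05, 0.02 and -0.0070.

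Of other genes altered in meningioma, all 11 listed were measured and 8 passed. Apart from TRAF7 none was 1.5-fold apart in any comparison, which the shares of all genes (7.22%, 8.15% and 3.98%) also give for so short a list. KLF4, which is often mutated together with TRAF7, lay below the filter at 0.93, 1.19 and 1.09. LZTR1 read 4.35, 4.67 and 4.57, and the histone demethylase KDM5C 1.98, 2.10 and 2.31. PBRM1, a subunit of the PBAF remodeller, was 6.10, 6.28 and 6.41. All 3 were lowest with the empty vector, as 50.4% of genes were, and their largest differences from it (0.32, 0.33 and 0.30) are close to that of NF2.

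**Figure D3:**
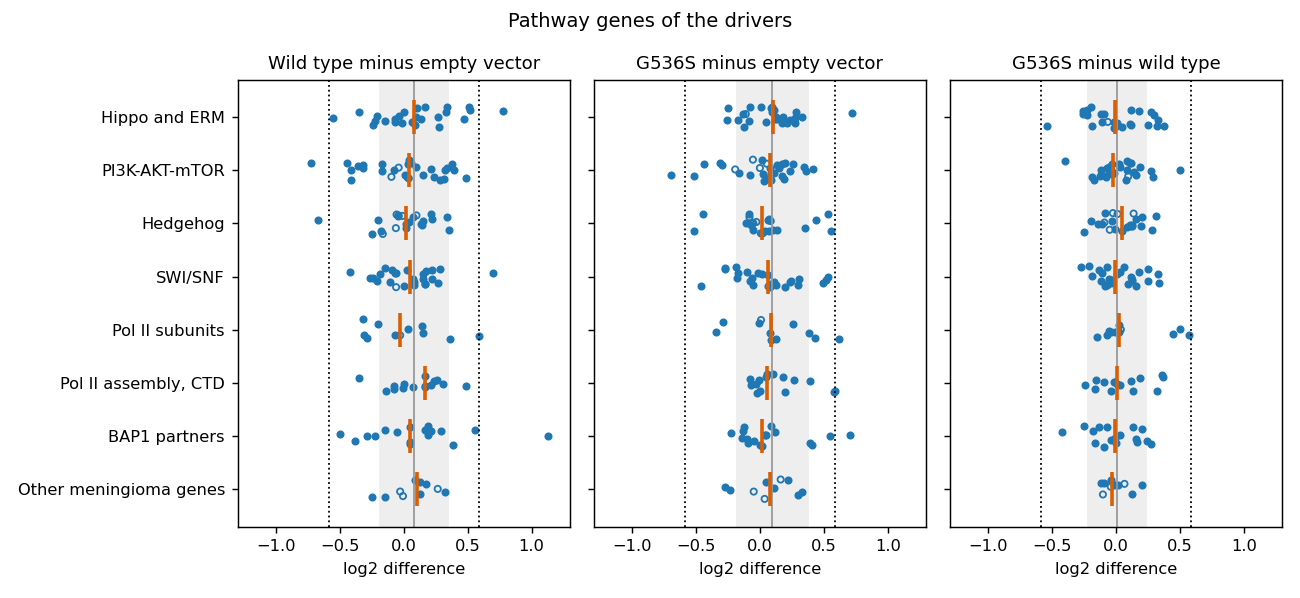
Log2 differences (x axis) of the genes in the 8 pathway lists (y axis) in each comparison; each point is 1 gene, open points did not pass the level filter, orange bars are list medians and TRAF7 is left out. The grey band is the median of all genes passing the filter plus and minus their robust spread, dotted lines mark 1.5-fold, and every list median lies within 0.11 of the grey line; UCHL3, at 1.13 with wild type, is the farthest point.

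Across the 8 drivers, the wild-type array was the lowest of the 3 for 5 genes (AKT1, SMO, SUFU, SMARCB1 and POLR2A), where it was for 24.9% of genes passing the filter. After quantile normalization NF2 joined them, for 6 of 8 beside 31.6%. The G536S array was the highest for 4 drivers (NF2, AKT1, SMO and POLR2A) beside 40.0% of genes, and for NF2 alone (1 of 8) beside 28.8% after quantile normalization. The empty vector array was the highest for 2 drivers beside 23.9% of genes as deposited, and for 6 of 8 beside 40.7% after quantile normalization and 37.5% after cyclic loess. For SUFU and AKT1 these orders rest on ranges of 0.07 and 0.10, inside the spread of differences between any 2 arrays. The SMARCB1 range of 0.24 is also below the spread of wild type minus empty vector (0.27). Against the median gene of that comparison SMARCB1 stood at -0.32. NF2 differed by only -0.06 there after quantile normalization. With 8 genes and 1 array per group these counts are a description. No list median lay more than 0.11 from that of all genes, as deposited or under a rescaling. Of 11 differences past 1.5-fold among the pathway genes named, TRAF7 left out, 5 were past it under all 3 rescalings: WWC1, GAS1 and UCHL3 with wild type, and FOXO4 with both constructs. MOB1A with G536S was among those lost, at 0.57 after rescaling at the lowest. The matching share over all genes is not given here, so 5 of 11 does not set these genes apart. Short of 1.5-fold as deposited and past it under at least 1 rescaling were AMOT and HCFC1 with wild type, and TSC2, SS18L1, GAS1, GRK2, GLI2 and RPAP2 with G536S, each against the empty vector.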

How the data were processed

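The authors deposited log2 intensities per probe set, made with RMA per the submitters' processing notes from biotin-labelled cRNA of 300 ng total RNA per the labels' protocols. Software version and array build: not given in the sources used here. Base 2 was inferred, since a highest value of 12.57 exceeds the natural log of a 16-bit scanner's top (11.09). Of 53617 probe sets, 23871 name 1 gene, 1842 name several and 27904 are unnamed here; symbols were updated through the Entrez ID for 22569. Each gene took its probe set of highest mean. Unless stated, list counts and medians take in every measured gene of a list, those below the level filter too. Shares and medians of all genes are over genes passing. Differences are log2 values of 1 array minus another, and calls are at least 1.5-fold; with 1 array per group there was no test. The number of arrays limits the precision. The rule for members uses names alone, but members and lists were proposed with earlier results of these data known. Named are the drivers, TRAF7, list genes passing the filter that were 1.5-fold apart or the 2 farthest apart in a comparison, and, for a driver 1.5-fold apart, the genes nearest in pattern, of which there were none; a few others were named after their values were seen. The 7 alternatives were the mean of probe sets, no filter, a filter at 2.87, quantile normalization, median centring, cyclic loess and a floor at 0.86. Simulated data with known fold changes were used to check that median differences were recovered. That check did not cover the counts past 1.5-fold. Tools were limma 3.58.1 in R 4.3.3, Python 3.11.15, numpy 2.4.6, pandas 2.3.3 and matplotlib 3.10.9.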

Additional observations from a re-analysis of the deposited data

Results flagged for a closer look

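In 4 of the 41 drivers and pathway genes chosen by the naming rule (9.76%), the constructs lay on opposite sides of the empty vector by at least 0.1 on the log2 scale. The same held for 8 of all 149 drivers and list genes passing the level filter (5.37%), beside 6.99% of all genes passing, so the share is near that of other genes. The 4 not described below are POLR2E, MLST8, PRKACA and WWTR1. These differences between the constructs were not tested, since each group is 1 array. POLR2A, the largest polymerase II subunit, differed from the empty vector by -0.30 (wild type) and 0.10 (G536S). POLR2G, a smaller subunit of the same enzyme, differed by -0.31 and 0.26. SAV1, the scaffold of the Hippo kinases, differed by -0.24 and 0.13. SMARCD1, of the SWI/SNF complexes, differed by -0.21 and 0.13. After quantile normalization or cyclic loess the G536S difference lost its sign for POLR2A, SAV1 and SMARCD1, while that of POLR2G was between 0.11 and 0.29 under the rescalings.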

How the results depend on the processing

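The count of drivers 1.5-fold apart between wild type and empty vector was 0 as deposited. It was 1 under quantile normalization and under cyclic loess, where SMO passed 1.5-fold. Of the 11198 genes passing the filter, 350 were 1.5-fold higher and 383 lower with wild type under quantile normalization. Under cyclic loess 366 were higher and 347 lower. A count of 1 under either setting therefore does not set the drivers apart from other genes. Those settings move the median gene: quantile normalization shifted it by -0.10 in the wild-type and -0.12 in the G536S comparison with the empty vector. Of calls at 1.5-fold over all genes, 75.1% were higher with wild type and 74.5% with G536S as deposited, and 47.7% and 41.5% after quantile normalization. The other 40 counts and medians over the drivers, and all 162 single differences, kept their value or moved by less than the robust spread. That spread, of all genes in the same comparison, was the yardstick because there are no replicates. Single differences could not change under the filters or the floor, nor under the mean of probe sets for a driver with 1 probe set. The median driver difference ranged from -0.17 to -0.02 with wild type, from -0.12 to 0.05 with G536S against the empty vector, where it changed sign, and from 0.07 to 0.13 between the constructs. A filter at the 75th percentile leaves out AKT1 and SMO and keeps 6 drivers. No paired analysis was possible because each group has 1 array. AKT1 lies just above the level filter and KLF4 below it, where differences are compressed.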
